A study of Homo sapiens with 6 samples.

Results

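The genes described here are 9 members of the epidermal growth factor receptor (ErbB) system in MDA-MB-231 cells: the receptors EGFR, ERBB2 and ERBB3, the ligands AREG, EREG, HBEGF, TGFA and BTC, and ERRFI1, a feedback inhibitor of the receptors. They were chosen by gene symbol, and all 9 were found among the 17631 genes with a value. MDA-MB-231 is a widely used line of human triple-negative breast cancer. The data are RNA-seq of 6 libraries from this single line, 3 of cells given vehicle for 24 h and 3 of cells given 30 µM PDBAG1 for 24 h. PDBAG1 is a synthetic peptide made of a stretch of the enzyme GPD1 joined to a cell-penetrating sequence, and no library received the cell-penetrating sequence alone. Nothing in the labels says that the libraries of a group came from separate cultures, so the p values measure the spread between these libraries, which may be technical.

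In this system the ligands are made as membrane-anchored precursors and are cut free by metalloproteases, of which ADAM17 is the best known. A freed ligand makes 2 receptors pair, and the paired kinase domains signal through RAS, ERK and PI3K to early-response genes. ERRFI1, also called MIG6, is among the genes switched on by that signal, and its protein binds the EGFR kinase domain and shuts it down. Breast cancers of the triple-negative class often express EGFR and lack amplification of ERBB2.

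PDBAG1-treated cells held 2.35 times as much ERRFI1 mRNA as vehicle-treated cells, whereas none of the 3 receptor genes changed past the test. Among the ligands, EREG and AREG rose slightly, by a log2 fold change (log2FC) of 0.30 and 0.21. HBEGF and TGFA did not pass the test, and BTC was expressed too weakly to be tested. Values are given as TPM, a relative expression unit corrected for gene length, so levels may be compared between genes. A gene was tested if its TPM was at least 1 in 3 or more libraries, which held for 12582 genes and for 8 of the 9 members. The test was limma on log2(TPM + 1), two-sided, with Benjamini-Hochberg adjustment over all genes tested, and log2FC are PDBAG1 minus vehicle on that scale. "Rose" and "fell" are used for an adjusted p under 0.05.

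By this criterion 3 of the 8 members tested rose and 0 fell. Over all genes tested, 21.7% rose and 15.9% fell, and 37.6% passed in either direction. The members' count in either direction, 3 of 8, is therefore near the share among all genes tested. No member was lower at an unadjusted limma p under 0.05 either, and the 3 that were higher at that level are the 3 that rose. The share of all genes at that unadjusted level is not given, so these counts are not compared with it. With a fold change of at least 1.5 as a further condition, ERRFI1 alone remained, where 2.86% of all genes tested were higher. The median log2FC was 0.11 over the 8 members and 0.03 over all genes tested.

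**Figure D1:**
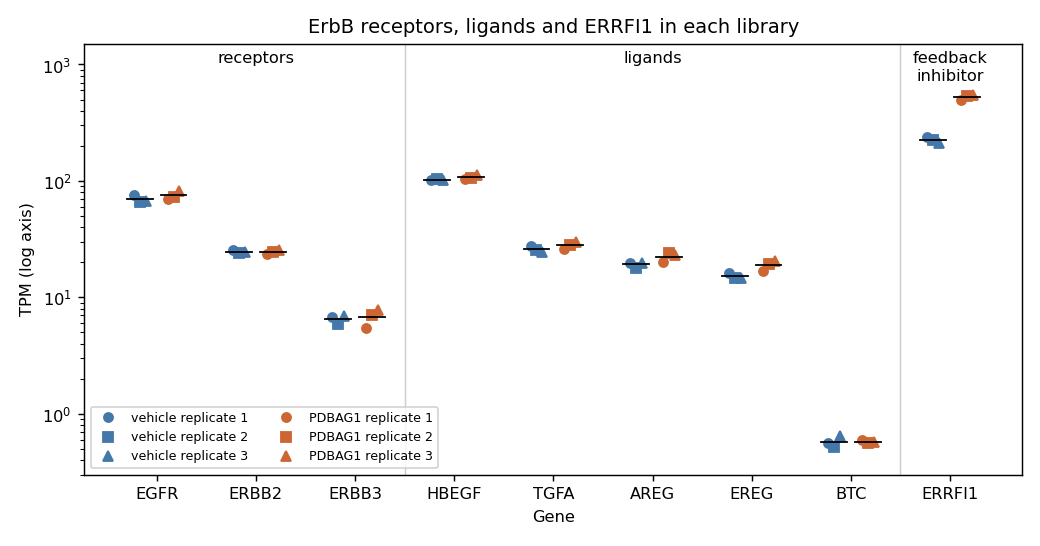
TPM (log axis) of the 9 genes in each of the 6 libraries, with vehicle in blue, PDBAG1 in orange, a symbol per replicate number and a bar at the mean of 3 libraries. The ERRFI1 groups are apart, at 210 to 237 TPM against 499 to 546 TPM, and the other genes lie at nearly the same height in both groups.

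ERRFI1 was the most abundant member and the one that changed most. It lies on chromosome 1 (8004404 to 8026309, minus strand, GRCh38, GENCODE v44), and its canonical transcript has 4 exons. The vehicle libraries held 237, 226 and 210 TPM, and the PDBAG1 libraries held 499, 535 and 546 TPM. Every PDBAG1 library lay above every vehicle library, with a gap far wider than the spread within either group. The means were 224 ± 13.7 TPM and 527 ± 24.7 TPM (SD, n = 3 each). The log2FC of ERRFI1 was 1.23 (SE 0.05, 95% interval 1.12 to 1.33, limma adjusted p = 5.58e-10). Averaged over the 6 libraries, ERRFI1 ranked 378 among the 17631 genes by TPM.

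The gene starts of ERRFI1, EREG and AREG are shown because these are the 3 members that rose. Each line gives the 120 bases directly upstream of the start in RefSeq (build GRCh38.p14), 5′ to 3′ on the gene's own strand, and capitals mark every match to the motifs searched.
ERRFI1, chr1:8026310-8026429, minus strand: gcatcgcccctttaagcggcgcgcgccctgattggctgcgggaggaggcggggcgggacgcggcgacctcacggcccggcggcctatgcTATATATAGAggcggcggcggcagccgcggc
EREG, chr4:74365025-74365144, plus strand: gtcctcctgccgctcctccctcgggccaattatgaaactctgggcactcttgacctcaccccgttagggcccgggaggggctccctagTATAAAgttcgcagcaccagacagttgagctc
AREG, chr4:74445016-74445135, plus strand: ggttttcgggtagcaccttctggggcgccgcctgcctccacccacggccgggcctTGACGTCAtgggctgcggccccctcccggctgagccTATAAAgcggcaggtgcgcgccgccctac
The motifs searched, on both strands, were TATANA, the pattern of a TATA box, TGACGTCA (the cyclic AMP response element), TGANTCA (an AP-1 pattern), and ACGTG and GCGTG (the cores bound by hypoxia-inducible factors). All 3 windows hold TATANA, which begins at base -31 of ERRFI1, -32 of EREG and -29 of AREG counted from the start, and in ERRFI1 3 matches overlap. Of all 35116 promoter windows of this length, 9.19% hold TATANA. Among the members, 8 of 9 had an entry, with 10 entries in all, and 4 of the 10 held it, the other being an EGFR entry. AREG alone among the members holds TGACGTCA, from -65 to -58, as do 1.29% of all windows. TGANTCA and ACGTG occur in none of the 10 windows and in 3.34% and 10.5% of all windows. GCGTG occurs in windows of BTC and TGFA and in 19.9% of all. These matches describe the letters in the windows and say nothing about which factors bound there.

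Of the receptors, EGFR was the most abundant. EGFR (chromosome 7, 55019017 to 55211628, plus strand) binds EGF and all 5 ligands among the members. Its vehicle libraries held 75.8, 66.3 and 66.7 TPM and its PDBAG1 libraries 69.6, 73.0 and 82.5 TPM. The groups overlapped, because vehicle replicate 1 lay above PDBAG1 replicates 1 and 2. The means were 69.6 ± 5.41 and 75.0 ± 6.67 TPM (SD, n = 3 each), and the log2FC was 0.11 (SE 0.07, limma adjusted p = 0.237). The 95% interval ran from -0.04 to 0.25, that is from 0.973 to 1.19-fold, so a change of 1.5-fold in either direction lay outside it. In each group the library highest for EGFR also had the highest size factor when libraries were compared by the median of ratios over all genes, 1.02 for vehicle replicate 1 and 1.04 for PDBAG1 replicate 3. After scaling by these factors the log2FC of EGFR was 0.07 and still did not pass (limma adjusted p = 0.302).

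ERBB2, which has no known soluble ligand and acts as a pairing partner for the other receptors (chromosome 17, 39687914 to 39730426, plus strand), was nearly level in all libraries. It stood at 25.4, 24.2 and 24.7 TPM with vehicle and at 23.6, 24.7 and 25.3 TPM with PDBAG1. The groups overlapped, with PDBAG1 replicate 1 lowest and vehicle replicate 1 highest, and had means of 24.7 ± 0.633 and 24.5 ± 0.885 TPM (SD, n = 3 each). The log2FC was -0.01 (95% interval -0.14 to 0.11, limma adjusted p = 0.880), and its sign turned when vehicle replicate 1 or PDBAG1 replicate 1 was left out.

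ERBB3, a receptor with a weak kinase that binds neuregulins (chromosome 12, 56076799 to 56103505, plus strand), was the least abundant of the 3. Its values were 6.74, 5.93 and 6.93 TPM with vehicle and 5.51, 7.12 and 7.78 TPM with PDBAG1. The PDBAG1 libraries held both the lowest and the highest value of the 6. The log2FC of 0.04 had the widest interval among the members, -0.20 to 0.28 (limma adjusted p = 0.793), and it turned negative without vehicle replicate 2 or PDBAG1 replicate 3 and under quantile normalization, where it was -0.063. EGFR made up 67.8% to 70.2% of the summed TPM of the 3 receptors in the vehicle libraries and 69.7% to 71.4% in the PDBAG1 libraries.

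EREG and AREG are neighbours on chromosome 4. EREG (74365145 to 74388749, plus strand) encodes epiregulin, a ligand of EGFR and ERBB4, and AREG (74445136 to 74455005, plus strand) encodes amphiregulin, a ligand of EGFR. EREG stood at 16.3, 14.6 and 14.7 TPM with vehicle and at 16.9, 19.4 and 20.4 TPM with PDBAG1. The groups did not overlap, although PDBAG1 replicate 1 was close to vehicle replicate 1. The means were 15.2 ± 0.942 and 18.9 ± 1.81 TPM (SD, n = 3 each), and the log2FC was 0.30 (SE 0.08, 95% interval 0.13 to 0.47, limma adjusted p = 0.00967). EREG kept its call in all 11 alternative settings, with adjusted p between 0.00162 and 0.0436.

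For AREG the vehicle libraries held 19.8, 17.9 and 19.9 TPM and the PDBAG1 libraries 20.1, 24.1 and 23.0 TPM. The groups did not overlap, but PDBAG1 replicate 1 exceeded the highest vehicle library by only a small margin. The means were 19.2 ± 1.12 and 22.4 ± 2.06 TPM (SD, n = 3 each), and the log2FC was 0.21 (SE 0.08, 95% interval 0.05 to 0.37, limma adjusted p = 0.0435). This call was narrow and was lost in 7 of the 11 alternative settings, among them leaving out vehicle replicate 2 or 3 (log2FC 0.16 and 0.23) and leaving out PDBAG1 replicate 2 or 3 (log2FC 0.16 and 0.19). Over the 11 settings the adjusted p ran from 0.00709 to 0.194. AREG mRNA exceeded EREG mRNA by 1.22 to 1.35 times in the vehicle libraries and by 1.13 to 1.24 times in the PDBAG1 libraries.

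The same stretch of chromosome 4 holds the ligand genes EPGN and BTC. EPGN, which encodes epigen, starts 56.7 kb before EREG, AREG starts 80.0 kb after it, and BTC (74744759 to 74794523, minus strand) starts 429.4 kb after it. BTC, encoding betacellulin, was at 0.56, 0.52 and 0.65 TPM with vehicle and at 0.60, 0.56 and 0.57 TPM with PDBAG1. Both groups had a mean of 0.577 TPM, and all 6 libraries were below the limit for testing. EPGN was at 0.32 to 0.63 TPM with vehicle and 0.16 to 0.78 TPM with PDBAG1 and was not tested either. Of the 4 neighbouring ligand genes, EREG and AREG were therefore expressed above 14 TPM in every library and the outer pair stayed below 1 TPM.

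HBEGF and TGFA, the more abundant ligands, had smaller log2FC than EREG and AREG, a difference between ligands that was not tested. HBEGF (chromosome 5, 140332843 to 140346603, minus strand) encodes heparin-binding EGF-like growth factor, a ligand of EGFR and ERBB4. It stood at 101, 104 and 102 TPM with vehicle and at 104, 106 and 112 TPM with PDBAG1. The lowest PDBAG1 library, at 103.88 TPM, lay just above the highest vehicle library, at 103.82 TPM. The means were 102 ± 1.42 and 107 ± 4.55 TPM (SD, n = 3 each), and the log2FC was 0.07 (95% interval -0.03 to 0.16, limma adjusted p = 0.261). With HBEGF, 4 of the 8 members tested had PDBAG1 values wholly above the vehicle values and 0 wholly below, against 27.2% and 20.2% of all genes tested.

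TGFA, encoding transforming growth factor alpha (chromosome 2, 70447284 to 70554193, minus strand), binds EGFR. Its vehicle libraries held 27.4, 25.7 and 24.7 TPM and its PDBAG1 libraries 26.0, 28.2 and 30.1 TPM. The groups overlapped, and the log2FC of 0.11 did not pass (95% interval -0.03 to 0.25, limma adjusted p = 0.213).

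**Figure D2:**
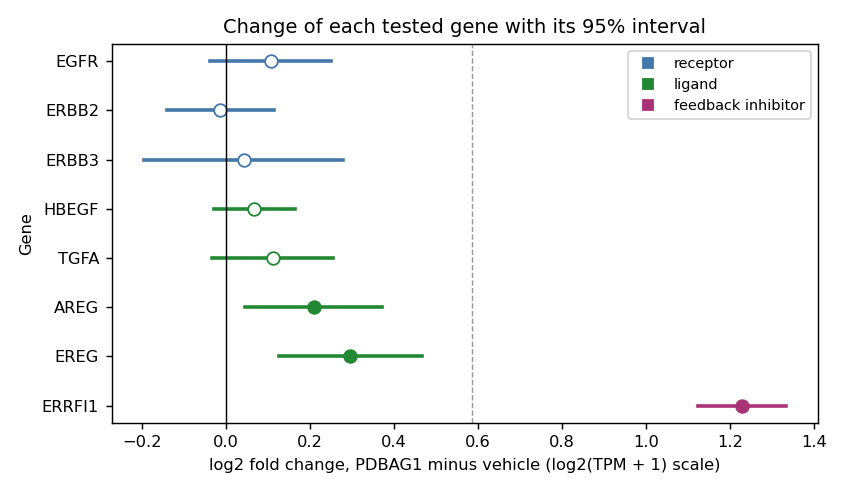
Log2 fold change of the 8 genes tested (PDBAG1 minus vehicle, log2(TPM + 1) scale) with 95% limma intervals, filled where the adjusted p was under 0.05. The dashed line marks 1.5-fold. ERRFI1 lies at 1.23, EREG and AREG at 0.30 and 0.21, and the intervals of the 3 receptors, HBEGF and TGFA include 0.

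In the vehicle libraries the order of the mean levels was ERRFI1, HBEGF, EGFR, TGFA, ERBB2, AREG, EREG, ERBB3 and BTC. Neighbours in this order did not overlap over the 3 libraries, except TGFA and ERBB2. The order was the same with PDBAG1, where the ranges of ERBB2 and AREG and those of AREG and EREG overlapped.

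The receptors and the ligands were then set side by side. The mean log2FC of the 4 ligands tested exceeded that of the 3 receptors by 0.13, and no p is given for this difference because the genes were chosen with results known. EREG and AREG, at 0.30 and 0.21, lay above all 3 receptors. TGFA and EGFR were both at 0.11, and HBEGF, at 0.07, lay below EGFR. NRG1, a ligand that is not a member, fell (log2FC -0.23) and was left out of these means and sums. Within the libraries, the mean log2 level of the 4 ligands exceeded that of the receptors by 0.35, 0.41 and 0.35 with vehicle and by 0.52, 0.51 and 0.45 with PDBAG1. These 2 ranges did not overlap. The summed TPM of the 5 ligands was 162 to 165 with vehicle and 168 to 186 with PDBAG1, and that of the 3 receptors was 96.3 to 108 and 98.7 to 116. Ligand TPM per receptor TPM was 1.53, 1.69 and 1.65 with vehicle and 1.70, 1.70 and 1.61 with PDBAG1, so on this linear scale, where HBEGF and EGFR weigh most, the groups overlapped. HBEGF gave 61.2% to 63.9% of the ligand sum with vehicle and 59.4% to 62.0% with PDBAG1, and AREG and EREG together gave 20.0% to 21.9% and 22.1% to 24.4%.

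The ratio of the feedback inhibitor to the receptor it binds was set out per library. ERRFI1 TPM per EGFR TPM was 3.13, 3.41 and 3.15 in the vehicle libraries and 7.17, 7.33 and 6.62 in the PDBAG1 libraries. The lowest PDBAG1 ratio was above the highest vehicle ratio. EREG per EGFR was 0.215 to 0.220 with vehicle and 0.243 to 0.265 with PDBAG1, without overlap, while AREG per EGFR, at 0.261 to 0.298 and 0.279 to 0.329, overlapped.

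**Figure D3:**
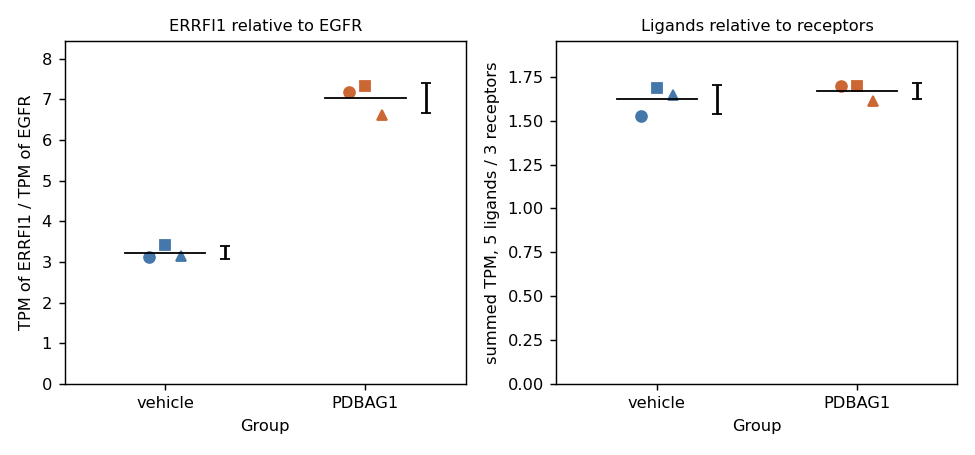
ERRFI1 TPM per EGFR TPM (left) and summed TPM of the 5 ligands per summed TPM of the 3 receptors (right) in each library, with the mean as a bar and the SD of 3 libraries beside it. The left ratio is 3.13 to 3.41 with vehicle and 6.62 to 7.33 with PDBAG1, and the right one overlaps between groups.

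Of the remaining ErbB receptor and ligands, NRG1 alone was well expressed. ERBB4 was at 0.01 to 0.02 TPM in all 6 libraries, EGF at 0.58 to 0.92 TPM, NRG3 at 0 to 0.06 TPM and NRG4 at 0.32 to 0.63 TPM. NRG1, the neuregulin that binds ERBB3 and ERBB4, fell. It was at 50.9, 48.4 and 47.1 TPM with vehicle and at 40.8, 40.4 and 43.6 TPM with PDBAG1, without overlap. The log2FC was -0.23 (SE 0.05, limma adjusted p = 0.00525), opposite in sign to those of EREG and AREG. NRG2 was near the limit, at 0.87 to 1.25 TPM and 1.26 to 2.02 TPM, and did not pass (log2FC 0.30, limma adjusted p = 0.102).

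The machinery that frees the ligands was examined in a list of 11 sheddases, iRhoms and related genes, all of them tested. Of these, 6 (54.5%) rose and 0 fell, where 21.7% of all genes tested rose and 15.9% fell, with a median log2FC of 0.36 against 0.03 over all genes tested. The list was chosen with earlier results of these data known. Its share therefore describes these genes only and was not tested against that of all genes. ADAM8, a metalloprotease, was higher with PDBAG1, at 115 ± 2.75 TPM against 56.4 ± 2.23 TPM (SD, n = 3 each), with log2FC 1.01 and limma adjusted p = 2.91e-09. RHBDF2, which encodes iRhom2, a partner of ADAM17 in its maturation, was at 21.5 ± 0.536 TPM against 12.5 ± 0.515 TPM (log2FC 0.74). ADAM17 itself, at 27.0, 25.4 and 25.4 TPM with vehicle, was at 33.7, 38.3 and 38.3 TPM with PDBAG1 (log2FC 0.48, limma adjusted p = 5.62e-05). RHBDF1 (iRhom1) and FRMD8, which stabilises iRhoms at the membrane, rose by log2FC of 0.47 and 0.37. ADAM12, at under 2 TPM in every library, was the other gene that rose (log2FC 0.36), and it did not pass without vehicle replicate 3 or without PDBAG1 replicate 3. ADAM10, the protease that sheds EGF and betacellulin, had a log2FC of -0.06 (limma adjusted p = 0.468). ADAM17, RHBDF1, FRMD8, ADAM12 and ADAM10 were picked after their values were seen.

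Receptor brakes and turnover genes showed no common direction. Of the 19 in the list, 18 were tested, 4 (22.2%) rose and 1 (5.56%) fell, and the median was 0.07. The share that rose is close to the 21.7% of all genes tested. CBLB, a ubiquitin ligase that marks activated receptors for destruction, rose to 6.09 ± 0.722 TPM from 3.09 ± 0.381 TPM (SD, n = 3 each), with log2FC 0.79 and limma adjusted p = 7.24e-05. SOCS2, an inhibitor of cytokine and growth hormone signalling, fell to 7.52 ± 0.904 TPM from 14.7 ± 0.644 TPM (SD, n = 3 each), with log2FC -0.89 and limma adjusted p = 4.50e-06. In the list of 26 adaptors and RAS/ERK and PI3K relay genes, 9 (34.6%) rose and 2 (7.69%) fell, against 21.7% and 15.9% of all genes tested, none reached 1.5-fold, and the median was 0.09. The 9 became 5 when vehicle replicate 2 or vehicle replicate 3 was left out, and the 2 became 1 without any single library other than PDBAG1 replicate 3.

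Growth-factor response genes mostly rose. Of 25 early and delayed response genes, 23 were tested, 20 rose and 1 fell, and the median log2FC was 0.40, where 21.7% of all genes tested rose. This list too was chosen with earlier results of these data known, and its share was not tested against that of all genes. FOS, FOSB and JUNB, which encode AP-1 subunits, and EGR1, a zinc-finger transcription factor, changed most. FOS was at 9.85 ± 0.911 TPM with PDBAG1 against 2.05 ± 0.254 TPM, and FOSB at 3.88 ± 0.270 TPM against 0.593 ± 0.176 TPM (SD, n = 3 each; log2FC 1.83 and 1.62). FOSB was under 1 TPM in every vehicle library and was tested only through its PDBAG1 values, and its log2FC was 2.55 with a pseudocount of 0.1. Without it 19 of 22 rose and the median was 0.39. EGR1 was at 14.3 ± 1.41 TPM against 5.91 ± 0.639 TPM, and JUNB at 74.6 ± 3.93 TPM against 34.9 ± 1.57 TPM (SD, n = 3 each; limma adjusted p = 7.79e-07 and 8.54e-09). CCND1, the G1 cyclin and the only member of this list that fell, had a log2FC of -0.12 and was picked after its value was seen. In 7 of the 11 alternative settings no gene of the list fell. These genes answer many signals besides ErbB receptors, and the data hold no measure of receptor activity.

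**Figure D4:**
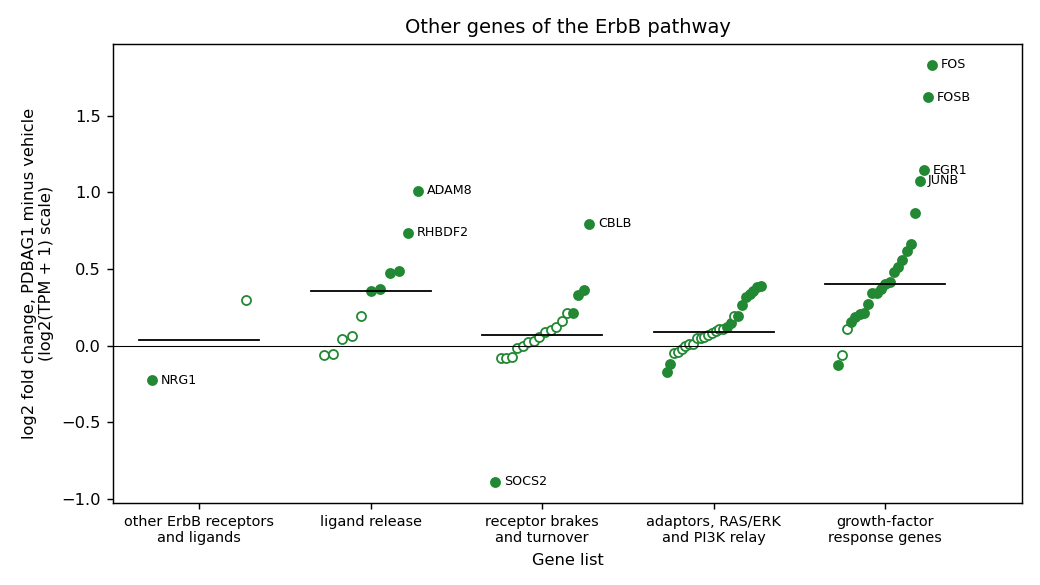
Log2 fold change (PDBAG1 minus vehicle, log2(TPM + 1) scale) of the tested genes in 5 ErbB pathway lists, filled where the limma adjusted p was under 0.05, with a bar at each list's median. The ligand release and response lists lie mostly above 0, with medians of 0.36 and 0.40, and the other medians are 0.04 to 0.09.

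Across the 6 libraries the log2 levels most like those of ERRFI1, among 10347 other genes with a mean of at least 5 TPM, were those of GBE1, CXCL8 and TCP11L2, each with a Pearson correlation above 0.99. With 3 libraries in each of 2 groups this likeness mainly repeats the difference between groups, and 275 genes reached a correlation of 0.99. GBE1, the glycogen branching enzyme, was at 68.9 and 111 TPM on average with vehicle and PDBAG1, and CXCL8, the chemokine interleukin-8, at 536 and 916 TPM. The genes most like EGFR were MTRES1, PIK3R4 and TTBK2, also above 0.99, with log2FC of 0.11, 0.09 and 0.09. For EGFR, whose groups overlapped, 11 genes reached a correlation of 0.99 over these 6 libraries, and what they share was not tested.

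The libraries bear on these results as follows. A TPM of 1 was reached by 12392 to 12495 genes in the vehicle libraries and by 12563 to 12611 in the PDBAG1 libraries, without overlap. The SD of log2 differences between libraries was 0.14 to 0.18 within a group and 0.28 to 0.30 between groups. Of the markers of a mesenchymal-like triple-negative line (VIM, CD44, FN1, AXL, CAV1), all were abundant. Their summed TPM was 5481 to 5669 with vehicle and 7183 to 7295 with PDBAG1. Of these 5 markers 3 rose and 2 fell, where 21.7% of all genes tested rose and 15.9% fell. The luminal or epithelial markers ESR1, PGR, CDH1, EPCAM and GATA3 summed to 10.6 to 12.7 and 10.8 to 13.6 TPM. The labels also name breast cancer tissue as the source, and of 8 markers of other tissue cells, 7 had a value, summing to 14.2 to 15.0 and 18.1 to 19.9 TPM. Of these 7, 3 were tested, 2 rose and 0 fell, against 21.7% and 15.9% of all genes tested. PECAM1, an endothelial and leukocyte marker, was at 8.64 ± 0.680 TPM with PDBAG1 against 3.94 ± 0.152 TPM (SD, n = 3 each) and rose, as did PDGFRB, while the endothelial marker VWF and the adipocyte markers ADIPOQ and PLIN1 stayed below 1 TPM. The leukocyte marker CD14 averaged 7.12 ± 0.516 TPM in the vehicle libraries against 6.22 ± 0.265 TPM in the PDBAG1 libraries (SD, n = 3 each), without overlap, and did not pass (limma adjusted p = 0.143), and PTPRC was at 0.86 to 1.41 TPM and 0.93 to 1.21 TPM and was not tested. Their part in the changes described was not tested. Fewer cells of a kind and less RNA per cell cannot be told apart in bulk RNA.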

How the data were processed

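MDA-MB-231 cells treated with vehicle or 30 µM PDBAG1 for 24 h were profiled by RNA-seq, with 3 libraries per group taken from the sample labels. Per the paper, reads from a BGISEQ-500 were mapped with HISAT2 to GRCh38.p13. The submitters' processing notes name GRCh38.p12, HISAT2 2.0.4, Bowtie2 2.2.5 and RSEM 1.2.12. The values the authors deposited are TPM with 2 decimals, scaled by them to one sum per library. TPM keeps no depth, so depth and counting error are unknown. Values were tested with limma 3.58.1 in R 4.3.3 (trend of variance) on log2(TPM + 1), which understates the change of low genes, and the steps were tested on simulated data.

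The members and lists were chosen with earlier results of these data known. Named genes were all members, the other ErbB genes, the up to 4 largest changes of at least 1.5-fold per pathway list, and the 3 genes most like EGFR and ERRFI1. Gene positions are from GENCODE v44 (GRCh38) and were matched by Ensembl identifier for all 9 members. Alternatives were another pseudocount (0.1), no filter, 2 scalings, the replicate number as a block, each library left out, and a 1.5-fold limit. With 3 against 3 libraries an exact permutation test cannot give a p under 0.1 and was not used.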

Additional observations from a re-analysis of the deposited data

How the results depend on the processing

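ERRFI1 and EREG kept direction and call in all 11 alternative settings, with log2 fold changes of 1.18 to 1.27 and 0.22 to 0.37. AREG kept its direction in all 11 and lost its call in 7, including no filter (limma adjusted p = 0.0948), quantile normalization (0.0651) and the replicate number as a replicate block (0.0805). EGFR, HBEGF and TGFA kept their sign and stayed short of the threshold in all 11. ERBB2 ranged from -0.036 to 0.014 with a library left out, changing sign without vehicle replicate 1 (0.0051) and without PDBAG1 replicate 1 (0.014). ERBB3 ranged from -0.049 to 0.17 with a library left out, changing sign without vehicle replicate 2 (-0.017) and without PDBAG1 replicate 3 (-0.049), and was at -0.063 under quantile normalization. Neither passed the threshold in any setting. The count of members that rose was 2 or 3 with a library left out and 1 with the 1.5-fold limit, and 0 fell in every setting. With that limit 420 genes were called in place of 4736. Quantile normalization made 46.7% of all calls higher and median-of-ratios scaling 49.4%, against 57.8% in the main fit. The shares of all genes that rose and fell therefore depend on the scaling. The excess of ligands over receptors was 0.09 to 0.15. Of the pathway lists, whose alternatives were added after the data were seen, the relay list gave 5 to 10 rises with a library left out. The replicate numbers were not taken to pair libraries, since deviations of same-numbered ones correlated at -0.21, 0.01 and -0.08. With the block 3951 genes were called, 3904 of them among the 4736. Without counts, no edgeR or DESeq2 fit was run. With 3 libraries per group the 95% intervals of the members that did not pass reached from 0.873-fold to 1.21-fold.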
